A study of Rattus norvegicus with 7 samples.

Results

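Expression of 8 genes of the NF-kB pathway was described in 7 RNA sequencing libraries of cultured rat oligodendrocyte progenitor cells: the subunit genes Nfkb1, Nfkb2, Rela and Relb, the feedback genes Nfkbia and Tnfaip3, and the adhesion genes Icam1 and Vcam1. The genes were chosen by symbol, and each of the 8 symbols stood on 1 row of the 32852 genes in the deposited table. The 3 siRNLTR12-int libraries came from cells transfected with an siRNA that targets the endogenous retroviral element RNLTR12-int, and the 4 control libraries from cells given a control siRNA. All cells were wild type, were taken from brains of rats at postnatal day 7 and stayed in differentiating medium for 4 to 5 days after transfection with the lipid reagent Lipofectamine RNAiMAX. The labels call the libraries biological replicates and name no animal, culture or day, so the p-values measure only the spread between these samples, which may be technical. The level of the targeted element was not analysed here.

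NF-kB is a family of transcription factors that act as dimers. Rela and Relb carry activation domains, whereas Nfkb1 and Nfkb2 encode precursors that are cut to the DNA-binding subunits p50 and p52. In resting cells the inhibitor IkB-alpha, the product of Nfkbia, holds dimers of Rela and p50 in the cytoplasm. Inflammatory signals lead to its destruction, and the freed dimers switch on, among many others, Nfkbia itself and the ubiquitin-editing enzyme gene Tnfaip3 (A20), both of which shut the response down, and the surface adhesion molecules Icam1 and Vcam1, which bind integrins of leukocytes. In the brain the pathway is best known in microglia, astrocytes and vascular cells, and it also acts in oligodendrocytes.

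The letters upstream of the feedback and adhesion genes are shown because these 4 genes are textbook NF-kB targets. They are the 250 bases before the transcript start in RefSeq's promoter table (build GRCr8), written 5′ to 3′, from chr6:78597073-78597322 (minus strand) for Nfkbia, chr1:15543980-15544229 (minus strand) for Tnfaip3, chr8:27829595-27829844 (plus strand) for Icam1 and chr2:206742784-206743033 (minus strand) for Vcam1. Capitals mark GGNNNTTCC, the core letters shared by many NF-kB sites, or its reverse complement GGAANNNCC. Letters that read as both were counted once.
Nfkbia: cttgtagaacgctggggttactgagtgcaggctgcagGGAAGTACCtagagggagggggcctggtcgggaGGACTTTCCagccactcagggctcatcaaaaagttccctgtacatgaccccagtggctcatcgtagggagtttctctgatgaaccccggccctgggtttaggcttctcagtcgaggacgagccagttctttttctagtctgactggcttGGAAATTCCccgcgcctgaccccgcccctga
Tnfaip3: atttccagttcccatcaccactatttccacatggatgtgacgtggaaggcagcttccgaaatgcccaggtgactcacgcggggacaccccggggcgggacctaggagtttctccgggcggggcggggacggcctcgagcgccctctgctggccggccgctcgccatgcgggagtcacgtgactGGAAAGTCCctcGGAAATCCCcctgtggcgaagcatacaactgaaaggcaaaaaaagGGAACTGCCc
Icam1: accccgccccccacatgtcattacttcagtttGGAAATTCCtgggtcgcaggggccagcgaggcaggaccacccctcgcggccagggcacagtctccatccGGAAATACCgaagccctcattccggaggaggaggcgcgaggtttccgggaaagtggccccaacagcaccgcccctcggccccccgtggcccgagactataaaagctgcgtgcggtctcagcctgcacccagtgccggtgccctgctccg
Vcam1: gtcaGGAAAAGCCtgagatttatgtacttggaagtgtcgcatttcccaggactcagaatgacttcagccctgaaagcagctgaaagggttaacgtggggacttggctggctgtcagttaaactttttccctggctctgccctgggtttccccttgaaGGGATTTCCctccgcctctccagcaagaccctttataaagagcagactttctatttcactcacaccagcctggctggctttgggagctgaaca
Nfkbia held 3 matches, which began 213, 180 and 31 bases before the start. Tnfaip3 also held 3, at 67, 55 and 10 bases. Icam1 held 2 (at 218 and 149 bases) and Vcam1 held 2 (at 246 and 93 bases). Nfkb2 had 2 matches as well, one of them GGACTTTCC at 19 bases, letters that Nfkbia carries at 180 bases. The windows of Nfkb1 and Rela held no match, which says only that these letters are not in them. Thus 5 of the 7 members matched to the table held the motif, against 15.4% of 33469 upstream windows of the same length, and all 5 held at least 2 matches, against 1.57% of the windows. Relb was matched to no entry. A match is a description of the letters and not evidence of binding.

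The libraries held 31609908 to 48187822 reads in the siRNLTR12-int group and 22523873 to 61803693 in the control group, recovered as whole numbers from the normalised counts (reads divided by a size factor per library). A member had between 64 reads (Icam1) and 10240 reads (Vcam1) in a library. Oligodendrocyte and progenitor markers were present in every library. The summed count of 12 oligodendrocyte markers differed between the groups (137304 to 171744 in siRNLTR12-int and 239686 to 1021712 in control libraries). Of the 12, 9 were lower in siRNLTR12-int libraries without overlap, against 3.59% of the 18225 genes with a mean of at least 10. The part of these markers in the members' values was not tested. In addition 3 libraries held much astrocyte RNA. The summed normalised count of 13 astrocyte markers was 687865 in siRNLTR12-int replicate 1 and 626108 and 596645 in control replicates 1 and 2, against 150373 to 171458 in the other 4 libraries. Microglia and macrophage markers (14 measured) summed to 23631 in siRNLTR12-int replicate 1, 21671 in control replicate 1 and 9608 in control replicate 2, against 4050 to 5133 in the other 4. These 3 libraries are called astrocyte-rich below and the other 4 astrocyte-poor. In both groups more cells of a type and more RNA per cell cannot be told apart.

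None of the 8 members passed the test between siRNLTR12-int and control libraries, and neither did any other gene tested: limma on log2(normalised count + 1) called 0 of 18225 genes (0% higher and 0% lower at a Benjamini-Hochberg adjusted p under 0.05). Without adjustment 1 member, Nfkbia, was higher at a p under 0.05, as were 3.33% of all genes, and edgeR on the recovered reads gave the same count of members (3.18% of all genes), with 0 adjusted calls. In the authors' deposited table (DESeq2) the adjusted p-values of the members ran from 0.588 to 1, and 0.384% of the genes there were called higher and 0.368% lower. A positive log2 difference was found in 7 of the 8 members, against 51% of all genes tested, and the median was 0.38, against 0.0057 over all genes. All 8 passed the filter on low values. Groups overlapped in each of the 8 members, while 4.09% of all genes lay higher and 3.59% lower without overlap.

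**Figure D1:**
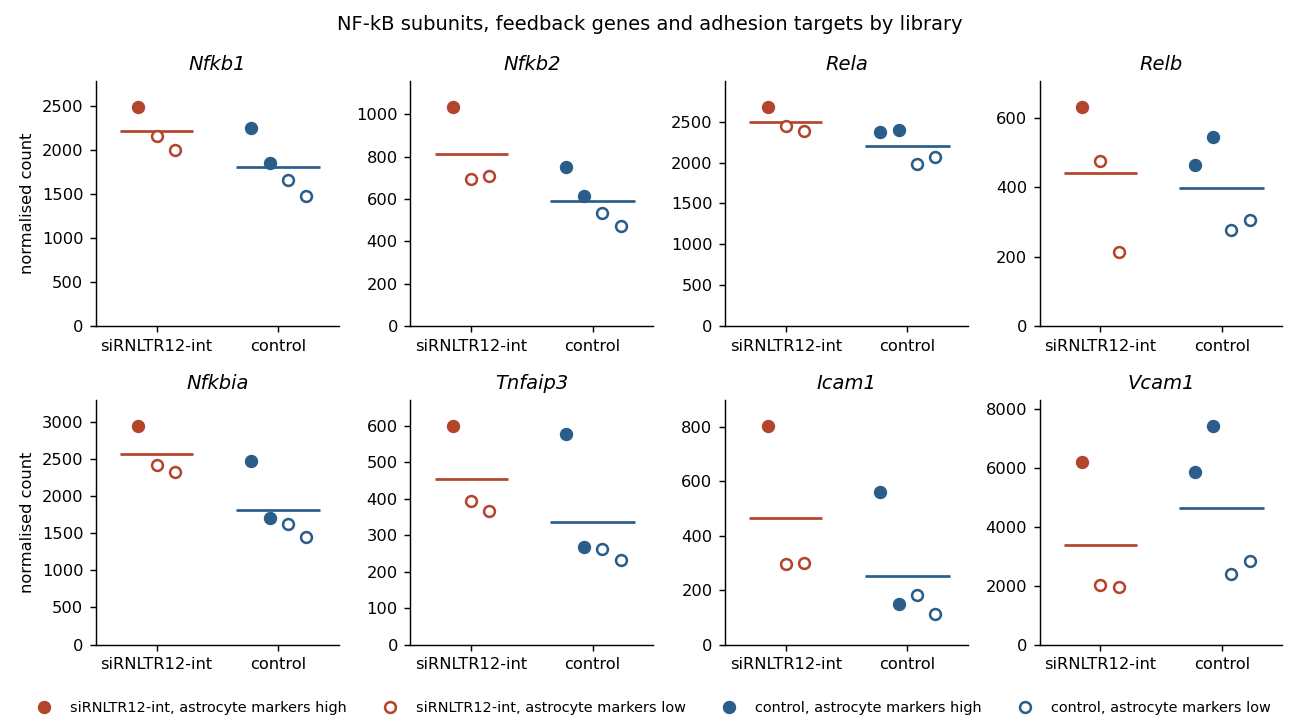
Normalised counts of the 8 members in the 3 siRNLTR12-int libraries (left) and the 4 control libraries (right), 1 point per library in replicate order, with horizontal lines at the group means and filled points for the 3 astrocyte-rich libraries. Filled points are the highest of their group in most panels, and in Vcam1 all 3 lie above all 4 open points.

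Among the subunits, Nfkb1 had 2486, 2156 and 1995 normalised counts in siRNLTR12-int replicates 1 to 3, against 2251, 1854, 1657 and 1480 in control replicates 1 to 4. The lowest siRNLTR12-int library lay above 3 of the controls, while control replicate 1 exceeded siRNLTR12-int replicates 2 and 3. Its log2 difference was 0.30 with a standard error of 0.16 (limma adjusted p = 0.859; exact permutation p = 0.143, two-sided over 35 splits, where 0.0286 is the smallest possible). Nfkb2 had 1033, 693.7 and 709.2 normalised counts in the siRNLTR12-int libraries, against 753.0, 613.9, 531.8 and 470.1 in the controls. Again only control replicate 1 reached into the siRNLTR12-int range, and the log2 difference was 0.45 ± 0.21 (SE; limma adjusted p = 0.828), or 0.27 without siRNLTR12-int replicate 1. RefSeq lists a pseudogene of Nfkb2, and the sources used here do not say how reads shared with it were divided, which makes its values less certain.

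Rela, the main activating subunit of the canonical pathway, varied least of the 8. It had 2677, 2446 and 2386 normalised counts in siRNLTR12-int libraries, against 2370, 2398, 1979 and 2070 in controls, a span of 0.44 on the log2 scale over all 7 libraries. Control replicate 2 lay just above siRNLTR12-int replicate 3, so the groups overlapped narrowly. The log2 difference was 0.19 ± 0.11 (SE; limma adjusted p = 0.880).

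Relb, the activating subunit of the non-canonical pathway, showed no shared direction. It had 629.4, 474.7 and 214.4 normalised counts in siRNLTR12-int libraries, against 464.1, 544.2, 274.9 and 305.1 in controls. The highest and the lowest of the 7 values both came from siRNLTR12-int libraries. The log2 difference of 0.069 ± 0.41 (SE; limma adjusted p = 0.997) turned negative when siRNLTR12-int replicates 1 or 2 or control replicates 3 or 4 were left out (-0.26, -0.054, -0.088 and -0.038). Replicates 2 and 3 of siRNLTR12-int were the most similar pair of libraries within a group, yet Relb had 375 reads in replicate 2 and 266 in the deeper replicate 3. That is a log2 gap of 1.14, as large as or larger than which only 0.182% of the 13754 genes with a mean of at least 100 showed between these libraries. The other 7 members differed by at most 0.11 there.

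Both feedback genes had higher values in each siRNLTR12-int library than in control replicates 2 to 4. Nfkbia had 2951, 2420 and 2329 normalised counts in siRNLTR12-int replicates 1 to 3, against 2472, 1709, 1619 and 1446 in control replicates 1 to 4. Each siRNLTR12-int library lay above control replicates 2 to 4, and control replicate 1 lay between siRNLTR12-int replicates 1 and 2. The means were 2567 ± 335.7 (SD, n = 3) in siRNLTR12-int and 1811 ± 453.4 (SD, n = 4) in control libraries. The log2 difference of 0.53 ± 0.19 (SE) had the smallest p of the 8 members (limma p = 0.0299, adjusted p = 0.716; exact permutation p = 0.114). With array weights, which count libraries unlike their group for less, Nfkbia passed (limma adjusted p = 0.0401, where 2.5% of all genes were called higher); over all the settings tried its adjusted p ranged from 0.0151 to 1 (limma, edgeR and DESeq2).

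Tnfaip3 had 599.3, 393.7 and 365.9 normalised counts in siRNLTR12-int libraries, against 577.9, 266.3, 262.0 and 232.4 in controls. Controls 2 to 4 lay close together below every siRNLTR12-int library, whereas control replicate 1 was nearly level with siRNLTR12-int replicate 1. The log2 difference was 0.50 ± 0.35 (SE; limma adjusted p = 0.918) with all libraries, 0.80 without control replicate 1 and 0.29 without siRNLTR12-int replicate 1 (limma adjusted p = 0.314 and 0.747).

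The adhesion genes ordered the libraries differently from each other. Icam1 had 804.9, 295.0 and 299.8 normalised counts in siRNLTR12-int libraries, against 561.7, 147.3, 181.0 and 113.5 in controls. It varied most of the 8, by 2.81 on the log2 scale between its highest and lowest library. Each siRNLTR12-int library lay above controls 2 to 4, while control replicate 1 exceeded siRNLTR12-int replicates 2 and 3. The log2 difference was 1.02 ± 0.61 (SE; limma adjusted p = 0.895; exact permutation p = 0.257), with 0.55 when siRNLTR12-int replicate 1 was left out and 1.51 when control replicate 1 was (limma adjusted p = 0.702 and 0.327).

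Vcam1 had 6202, 2025 and 1962 normalised counts in siRNLTR12-int libraries, against 5875, 7431, 2381 and 2837 in controls. Here the astrocyte-rich libraries of both groups were the high ones, and in the astrocyte-poor libraries both siRNLTR12-int values lay below both controls. It was the only member with a negative log2 difference in the fit of all libraries (-0.51 ± 0.55, SE; limma adjusted p = 0.975). With siRNLTR12-int replicate 1 left out it was -1.06, and with control replicate 3 left out -0.78. It was -0.25 or -0.23 when siRNLTR12-int replicate 2 or 3 was dropped, and -0.23 when control replicate 2 was. It was also the only member whose 3 astrocyte-rich libraries all exceeded the 4 astrocyte-poor ones, as 18.6% of all genes did.

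The gap between Icam1 and Vcam1 within a library was compared directly. The log2 value of Icam1 minus that of Vcam1 was -2.94, -2.78 and -2.71 in siRNLTR12-int replicates 1 to 3, against -3.38, -5.65, -3.71 and -4.63 in control replicates 1 to 4. Since transcript lengths enter such a gap, only its change between libraries is read. The groups did not overlap, the difference was 1.53, and the exact permutation p was 0.0571 (two-sided, 35 splits; 0.152 adjusted over the 4 pairs compared). Nfkbia minus Rela differed by 0.34 and Nfkb2 minus Nfkb1 by 0.15 (exact permutation p = 0.114 each, adjusted 0.152), the second by 0.053 without siRNLTR12-int replicate 1 and 0.24 without siRNLTR12-int replicate 2. Relb minus Rela differed by -0.12 (exact permutation p = 0.857). None of the 4 passed, which does not show that the genes of a pair responded alike.

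Within the groups, most members also differed along the split in astrocyte markers. Over all 7 libraries only Vcam1 had every astrocyte-rich library above every astrocyte-poor one, against 18.6% of all genes. In siRNLTR12-int replicate 1 all 8 members were higher than in replicates 2 and 3, a pattern that 44.6% of all genes tested showed. Among controls, replicates 1 and 2 were both above replicates 3 and 4 in 7 of 8 members, against 26.9% of all genes. The exception was Icam1, at 147.3 in control replicate 2 and 181.0 in control replicate 3. Tnfaip3 was counted by a narrow margin, at 266.3 in control replicate 2 and 262.0 in control replicate 3. Control replicate 1 was the highest control in 5 of 8 members (Nfkb1, Nfkb2, Nfkbia, Tnfaip3 and Icam1), against 28.2% of all genes. With control replicate 1 left out, these same 5 members lay higher in siRNLTR12-int libraries without overlap, as did 8.02% of all genes.

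Within the 4 astrocyte-poor libraries, both siRNLTR12-int libraries lay above both controls in 6 members (Nfkb1, Nfkb2, Rela, Nfkbia, Tnfaip3 and Icam1) and below both in Vcam1. Over all genes tested, 31.2% lay higher and 25.3% lower in that way. The log2 differences there were 0.41 for Nfkb1, 0.49 for Nfkb2, 0.25 for Rela, 0.63 for Nfkbia, 0.62 for Tnfaip3, 1.05 for Icam1 and -0.38 for Vcam1, and the fit of these 4 libraries alone called Nfkbia and Tnfaip3 higher (limma adjusted p = 0.0151 and 0.0478), among 4.02% of all genes called higher. Its groups held 2 libraries each. In the 3 astrocyte-rich libraries, siRNLTR12-int replicate 1 was above both controls in 7 members, all but Vcam1, as it was in 33.3% of all genes. The differences ran from 0.17 (Rela) to 1.48 (Icam1), and Vcam1 differed by -0.091, with a single siRNLTR12-int library and no test. With the split as a block, the log2 differences of Nfkbia and Icam1 were 0.59 and 1.22 and did not pass (limma adjusted p = 0.200 and 0.300).

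**Figure D2:**
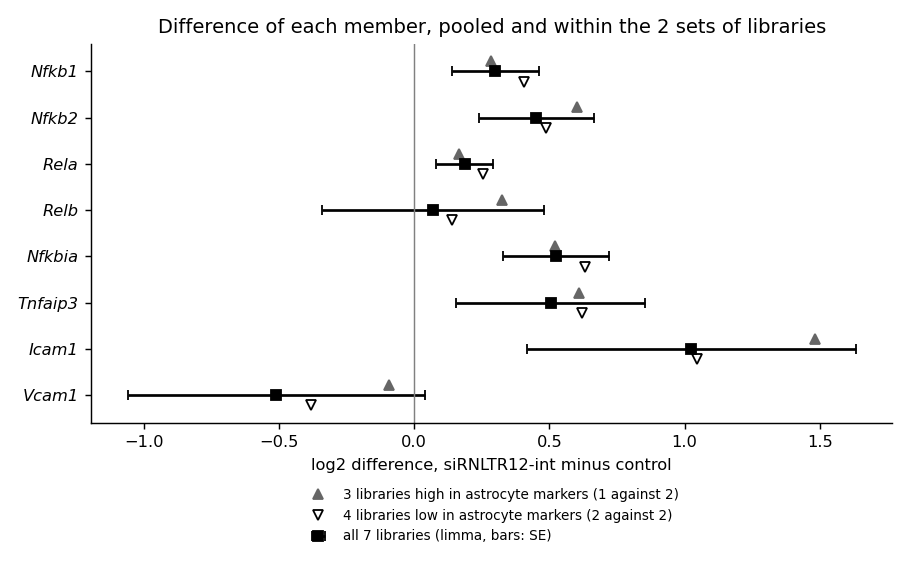
Log2 difference of siRNLTR12-int minus control for each member in all 7 libraries (squares, bars of 1 standard error from limma), in the 3 astrocyte-rich libraries (filled triangles) and in the 4 astrocyte-poor libraries (open triangles). All marks of the first 7 genes lie to the right of 0, those of Vcam1 to the left.

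Markers of other cell types moved with several members and their part in the values was not tested. Nfkb1, Nfkb2, Nfkbia, Tnfaip3 and Icam1 had their 2 highest values in siRNLTR12-int replicate 1 and control replicate 1, the same libraries in which microglia markers were highest, as did 18.6% of all genes. Most oligodendrocyte markers moved with the siRNA groups themselves. Of 12, 10 were lower on average in siRNLTR12-int libraries, while Olig1 and Olig2 were higher. The myelin gene Mobp, not among the markers set to be named, had 1243, 419.0 and 353.0 normalised counts in siRNLTR12-int libraries. It had 4965, 25262, 3040 and 3280 in controls. Of 14 microglia markers 4 were higher on average in siRNLTR12-int than in control libraries. Their sum ran from 5074 to 23631 in siRNLTR12-int and from 4050 to 21671 in control libraries. The defining markers were not at 0: Aif1 had 159.9, 24.1 and 32.2 normalised counts in siRNLTR12-int and 139.7, 64.6, 41.4 and 53.2 in control replicates, and Cx3cr1 had 92.3, 19.0 and 8.06 in siRNLTR12-int and 409.5, 108.1, 18.1 and 44.4 in control replicates. Of 13 astrocyte markers 5 were higher on average in siRNLTR12-int libraries, where their sum ran from 150373 to 687865, against 155386 to 626108 in controls. Gfap, the intermediate filament of astrocytes, had 306397 normalised counts in siRNLTR12-int replicate 1 and 262591 and 224537 in control replicates 1 and 2, against 19440 to 44392 in the others. Of 11 vascular, pericyte and fibroblast markers 7 were higher on average in siRNLTR12-int libraries, with sums of 1913 to 4937 against 1753 to 5730 in controls. The endothelial tight junction gene Cldn5 was at 0 in all 7 libraries, and the collagen gene Col1a1 had 1001, 792.5 and 718.9 normalised counts in siRNLTR12-int and 1782, 156.7, 550.7 and 534.0 in control replicates.

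**Figure D3:**
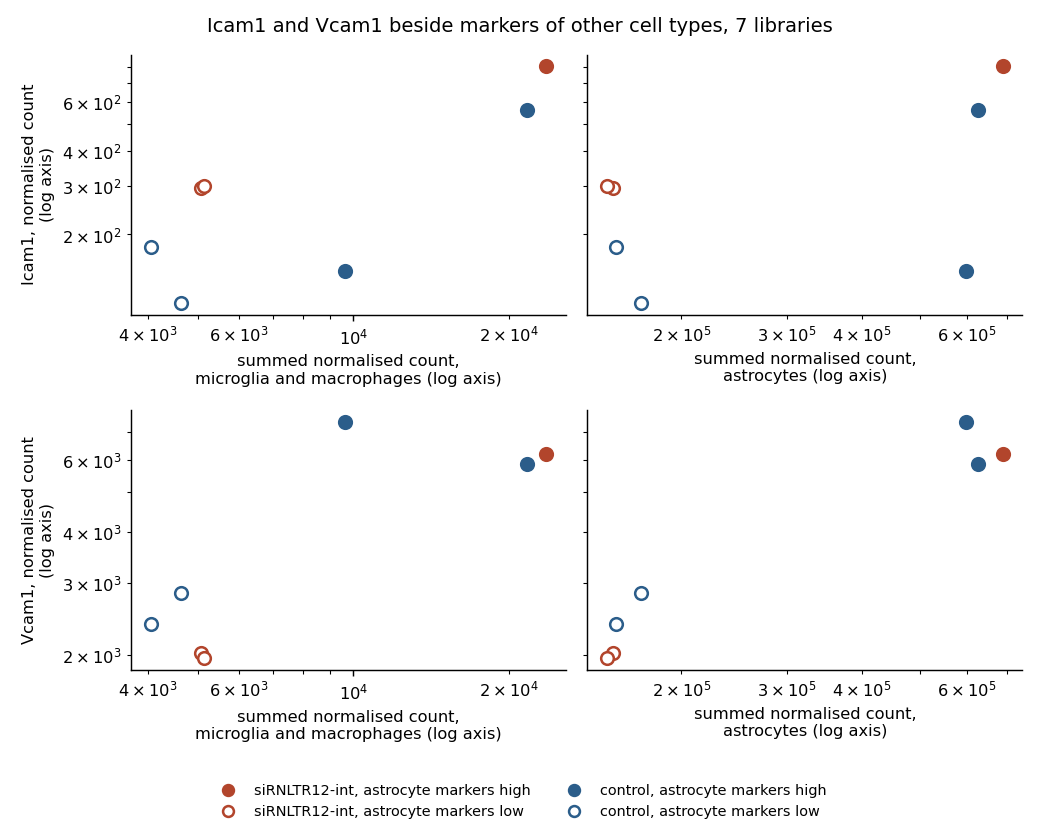
Normalised counts of Icam1 (top) and Vcam1 (bottom) against the summed normalised counts of 14 microglia and macrophage markers (left) and 13 astrocyte markers (right) in the 7 libraries, on log axes. Icam1 is highest in the 2 libraries with the most microglia markers and low in control replicate 2, whereas Vcam1 is high in all 3 astrocyte-rich libraries.

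The genes whose profiles over the 7 libraries came nearest to those of the members were taken by the root-mean-square difference of centred log2 values, out of 12229 genes with a mean of at least 100 and a gene name (provisional symbols such as LOC and RGD numbers left out). They were picked for likeness and are a description only. For Icam1 these were the collagen VI gene Col6a1 (0.14), the lysosomal protease gene Ctsc (0.17) and the lipid droplet gene Plin3 (0.19). For Vcam1 they were the glycogen phosphorylase gene Pygb (0.067), the growth factor receptor gene Pdgfrb (0.080) and the receptor gene Gprc5b (0.096). Among members, Tnfaip3 was nearest to Icam1 (0.45) and Relb to Vcam1 (0.50). This measure also counts how far a gene varies, which was 2.81 on the log2 scale for Icam1 and 1.36 for Tnfaip3. Both Icam1 and Tnfaip3 were highest in siRNLTR12-int replicate 1, followed by control replicate 1, and lowest in control replicate 4. Nfkb2 and Nfkbia were each other's nearest member (0.11). The nearest genes of all were Plcd3, Fgfr1 and Rras for Nfkbia (0.052, 0.055 and 0.069), Ppargc1a, Plxnb2 and Mov10 for Nfkb2 (0.086, 0.091 and 0.092), and Sorcs1, Dysf and Pitpnm3 for Tnfaip3 (0.083, 0.092 and 0.096). Relb lay farther from its nearest genes Mgst3, Rragd and Dok1 (0.22, 0.24 and 0.25). Nfkb1 and Rela varied by less than 1 on the log2 scale and were not matched.

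Of 6 other genes of subunits and inhibitors, 0 passed limma, 5 had a positive log2 difference and the median was 0.32. Nfkbie, which encodes the inhibitor IkB-epsilon and is itself induced by NF-kB, had 518.9, 487.4 and 454.5 normalised counts in siRNLTR12-int libraries, against 421.0, 419.4, 343.0 and 360.1 in controls. Nfkbiz, the nuclear IkB-zeta, had 859.7, 639.3 and 636.7 in siRNLTR12-int libraries, against 660.2, 401.3, 383.5 and 321.1 in controls. The groups of Nfkbie did not overlap, and those of Nfkbiz did so through control replicate 1 (log2 0.34 and 0.73; limma adjusted p = 0.755 and 0.712). Nfkbib, the gene of IkB-beta, lay on the other side, with 1072, 1085 and 1019 normalised counts in siRNLTR12-int libraries, against 1166, 2289, 1558 and 1921 in controls. Every siRNLTR12-int value of Nfkbib lay below every control value, and the log2 difference was -0.67 ± 0.22 (SE; limma adjusted p = 0.703). The summed count of oligodendrocyte markers, likewise lower in each siRNLTR12-int library, ordered the 4 controls as Nfkbib did, with control replicate 2 highest and control replicate 1 lowest. Among siRNLTR12-int libraries the orders differed, with the marker sum lowest in replicate 1 and Nfkbib lowest in replicate 3. The share of all genes with this order of controls was not computed. The part of these markers in the value of Nfkbib was not tested.

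Upstream of the subunits, groups did not overlap in 1 of 9 tested receptors (Ngfr, lower) and in 3 of 22 adaptors and kinases (all higher). Over all genes 4.09% lay higher and 3.59% lower without overlap. Of 10 receptors 9 were tested, without Cd40 at its low counts. The difference was positive in 7, and their median was 0.17. Tnfrsf12a, the receptor of the cytokine TWEAK, had 326.1, 815.2 and 679.4 normalised counts in siRNLTR12-int libraries, against 314.8, 220.6, 386.1 and 259.0 in controls (log2 0.97, limma adjusted p = 0.712), so that it was high in the astrocyte-poor siRNLTR12-int libraries. Tnfrsf1b, the TNF receptor found on microglia, had 867.9, 250.6 and 228.1 in siRNLTR12-int libraries, against 673.6, 171.3, 126.7 and 141.9 in controls (log2 0.78, limma adjusted p = 0.953). Leaving out siRNLTR12-int replicate 1 gave 0.16 for it, and leaving out control replicate 1 gave 1.33. The neurotrophin receptor gene Ngfr had 29.2, 19.0 and 32.2 in siRNLTR12-int libraries, against 34.4, 98.0, 39.6 and 42.6 in controls (log2 -0.88, limma adjusted p = 0.832), a difference of -0.55 without control replicate 2.

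The 22 adaptors and kinases had 12 positive differences and a median of 0.029, and the 9 negative regulators had 4 and a median of -0.012, both near the 0.0057 of all genes. Irak2, a kinase-like adaptor of interleukin-1 and Toll-like receptors, was the exception, with 491.5, 365.8 and 344.9 normalised counts in siRNLTR12-int libraries, against 313.8, 199.6, 176.7 and 179.2 in controls. Its groups did not overlap (log2 0.90 ± 0.25, SE; limma adjusted p = 0.661). Map3k7 (TAK1) and its partner Tab3 differed by 0.16 and 0.20 without overlap (limma adjusted p = 0.840 and 0.859). Among the negative regulators, N4bp1, Tnip2 and the deubiquitinase gene Otulin differed by -0.15, -0.23 and -0.24 with overlapping groups (limma adjusted p = 0.902, 0.972 and 0.978). Without siRNLTR12-int replicate 1 Tnip2 and Otulin differed by -0.49 and -0.51, and without siRNLTR12-int replicate 2 by -0.085 and -0.035. Tnip2 differed by -0.10 without siRNLTR12-int replicate 3, and Otulin by -0.10 without control replicate 1.

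Of 26 other NF-kB target genes 24 were tested, without Ccl5 and Il6 at their low counts. The log2 difference was positive in 21, against 51% of all genes, and their median was 0.69, against 0.0057. At an unadjusted p under 0.05 (limma) 6 were higher, against 3.33% of all genes. With limma 0 passed, and groups were apart in 4, all higher, against 4.09% of all genes. In the 4 astrocyte-poor libraries 19 lay higher and 1 lower without overlap (31.2% and 25.3% of all genes). Lif, a cytokine of the interleukin-6 family, had 75.8, 132.9 and 125.7 normalised counts in siRNLTR12-int libraries, against 52.6, 25.4, 39.6 and 33.7 in controls (log2 1.54 ± 0.33, SE; limma adjusted p = 0.647), and it rose in the authors' deposited table (DESeq2 log2 1.56, adjusted p = 0.00867). The cytokine gene Il1b had 107.8, 91.1 and 75.0 in siRNLTR12-int libraries, against 67.9, 26.1, 28.4 and 30.2 in controls. The stress-induced survival gene Ier3 had 386.4, 339.3 and 303.0, against 263.1, 82.7, 136.2 and 95.8 in controls. In these 2 genes control replicate 1 was again the control nearest to the siRNLTR12-int libraries (log2 1.34 and 1.39; limma adjusted p = 0.661 each). Without siRNLTR12-int replicate 1 the count of positive targets was 15 of 24, against 22 of 24 without control replicate 1. The shares of all genes that were positive with these libraries left out were not computed. The change in count is therefore not read as a trait of the targets.

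**Figure D4:**
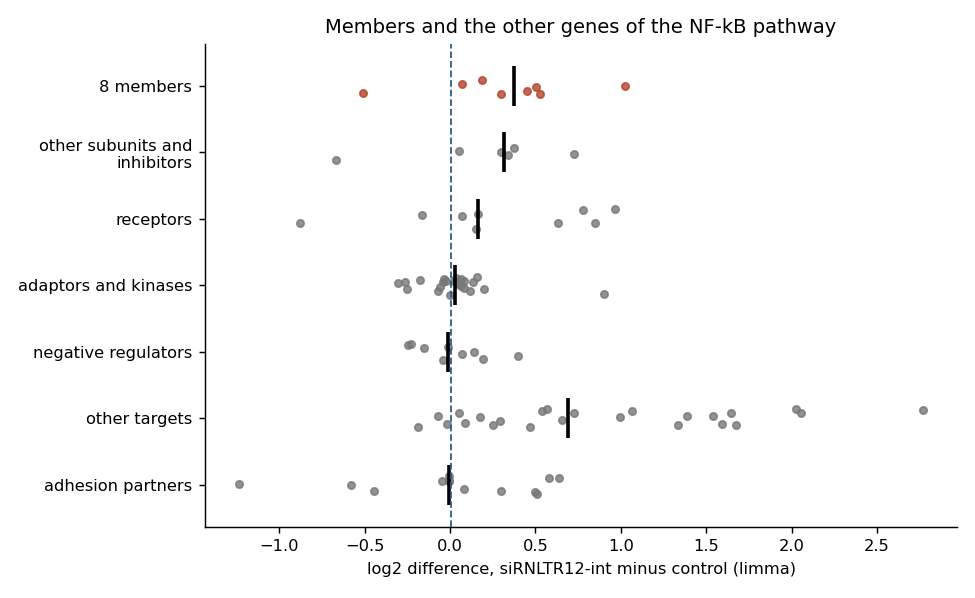
Log2 difference of siRNLTR12-int minus control (limma, all 7 libraries) for the 8 members and the tested genes of 6 lists of the NF-kB pathway, 1 point per gene, with black bars at list medians and a dashed line at the median of all 18225 genes. The medians of the members (0.38), the other targets (0.69), the other subunits and inhibitors (0.32) and the receptors (0.17) lie right of the line. Those of adaptors, negative regulators and adhesion partners lie on or near it.

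Of 13 tested partners of the adhesion molecules, 6 had a positive difference over all libraries and the median was -0.0045. Without overlap 1 lay higher (Alcam) and 2 lower (Itgb7 and Mcam), against 4.09% and 3.59% of all genes. Mcam, not named by rule, had 772.9, 689.9 and 697.1 normalised counts in siRNLTR12-int libraries. It had 1389, 4818, 1093 and 1128 in controls (log2 -1.24, limma adjusted p = 0.780). In the 4 astrocyte-poor libraries 9 of them lay higher and 2 lower without overlap, against 31.2% and 25.3% of all genes, and the median was 0.21, against 0.011 over all genes. Itgb7, an integrin chain that can pair into a receptor of Vcam1, had 34.7, 32.9 and 33.0 normalised counts in siRNLTR12-int libraries, against 62.2, 46.4, 44.0 and 51.4 in controls (log2 -0.58, limma adjusted p = 0.755). The adhesion molecule gene Alcam had 6849, 7721 and 7213 in siRNLTR12-int libraries, against 5645, 5073, 6415 and 6598 in controls (log2 0.30, limma adjusted p = 0.772). Msn, whose product moesin links Icam1 and Vcam1 to actin, overlapped between the groups at a limma log2 difference of 0.51 (adjusted p = 0.772). Itgb2, the chain shared by the integrin receptors of Icam1, had 4568, 1096 and 973.5 normalised counts in siRNLTR12-int libraries, against 3258, 766.3, 767.9 and 738.0 in controls. It was chosen after its values were seen, and it was highest in the same 2 libraries as Icam1, as were 18.6% of all genes. Itgal of the same list had 514.3, 183.6 and 219.2 in siRNLTR12-int libraries, against 606.6, 519.6, 199.1 and 314.0 in controls. Its highest values were in control replicates 1 and 2.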

How the data were processed

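Per the labels' protocols, RNA with integrity numbers of 9 to 10 went into strand-specific paired-end libraries after removal of ribosomal RNA. Salmon, DESeq2 and the build Rnor_6.0 are named in the submitters' processing notes. The authors deposited normalised counts, a signal per gene divided by a size factor of the library, and their own comparison with its mean signal, log2 fold change and standard error, test score, p-value and adjusted p-value, per the file headers. The value of 1 read was found for each library, and 100% of the values above 0 were whole numbers of reads (within 0.01 of a read).

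The main test was limma 3.58.1 (R 4.3.3; two-sided, with empirical Bayes moderation and a mean-variance trend) on log2(normalised count + 1), a scale that understates changes of low genes, over the 18225 genes with a mean of at least 10, without covariates, at an adjusted p of 0.05. A value after ± with SE is limma's standard error. edgeR 4.0.16 and DESeq2 1.42.0 were run on the recovered reads. The main limma fit, edgeR and DESeq2 were tested on simulated data that held no astrocyte split. The other settings, such as array weights, blocks and subsets of libraries, were not. Single values were compared by exact permutation over 35 splits. The closest libraries of a group had a median chi-square per gene of 1.29, against 0.455 from sampling alone. No library was therefore counted as the same library sequenced again. This reference covers only the sampling of reads, so it cannot show whether libraries came from separate cultures.

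The members, lists and tests were chosen with earlier results of these data known. Genes named by rule were the 8 members, the 3 smallest p of each pathway list and 5 markers. The 3 nearest profiles of each member spanning over 1 on the log2 scale were also named by rule. Cfb, whose symbol stands on more than 1 row, was left out, and Itgam, Pecam1, Col1a2 and Lhfpl3 were not analysed here. The astrocyte split lies at the midpoint of the lowest and highest mean log2 marker level. Counting error at the lowest member count, 64 reads, is far below the spread between libraries.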

Additional observations from a re-analysis of the deposited data

Results flagged for a closer look

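Among the 26 member and pathway genes examined, 7 had 1 control library far from the other 3 (a gap beyond Dixon's critical value for 4 samples). For independent values chance alone gives about 1 such group in 20. The share over all genes was not computed, so the count is not read as a trait of these genes. In 6 of the 7 the library was control replicate 1. It had 577.9 normalised counts of Tnfaip3, against 232.4 to 266.3 in the other controls, and 561.7 of Icam1, against 113.5 to 181.0. It likewise stood high in Tnfrsf1b (673.6, next 171.3), Irak2 (313.8, next 199.6) and Il1b (67.9, next 30.2), and low in Map3k7 (3400, next 3603). The exception was Ngfr, with 98.0 in control replicate 2 and at most 42.6 in the other controls.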

How the results depend on the processing

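Of 152 repeats of the member comparisons under other settings, 143 kept the direction and the side of the threshold, 6 reversed and 3 passed the threshold. The reversals were all in Relb, at -0.20 with array weights, at -0.038 in the fit with the replicate block, and in a range of -0.26 to 0.52 when 1 library was left out (limma). Relb minus Rela, -0.12 in all libraries, ranged from -0.39 to 0.30 when 1 library was left out and was 0.30 and 0.011 without siRNLTR12-int replicate 3 and control replicate 2. Called genes numbered 0 in the main fit, 839 with array weights (1 member), 1218 in the 4 astrocyte-poor libraries (2 members), 141 with DESeq2 on the recovered reads (0 members) and 0 to 2 when 1 library was left out (0 members). Members lying higher without overlap numbered 0 with all libraries, 6 in the astrocyte-poor libraries and 0 to 5 when 1 library was left out, with 5 without control replicate 1 (8.02% of all genes). The causes were not tested. Of 340 repeats for the other named genes, 324 kept direction and side of the threshold and 16 passed it. Members with a positive difference numbered 6 or 7 in all these settings, for which the shares of all genes were not computed. The replicate block called 0 genes and 0 members. Deviations of libraries with the same number correlated at 0.75, -0.19 and 0.63 across genes for numbers 1, 2 and 3. Between different numbers the correlations ran from -0.70 to 0.57. They were positive where both libraries were astrocyte-rich or both astrocyte-poor, and negative otherwise. Because the split enters them in this way, they cannot show whether samples with the same number were paired.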
